A study of Mus musculus with 2 samples.

Results

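Cycling cells were counted in 3 classes of mouse corneal epithelium that lie above or beside the dividing layer. They are the cells of the authors' classes Wing, Squam and Conj with at least 1 UMI (unique molecular identifier, a molecule counted once) in 3 or more of 9 genes: Birc5, Ccna2, Ccnb1, Cdk1, Cenpf, Mki67, Top2a, Tpx2 and Ube2c. Of the 21669 cells deposited, 322 met this rule, 197 in the young library and 125 in the old one. They comprised 162 Wing cells, 58 Squam cells and 102 Conj cells, out of 9839 cells of those 3 classes. Across all classes 2658 cells met the same threshold, 1517 of them in TAC2. The cells were chosen by the raw UMI counts of the 9 genes in these same cells, and the authors' classes came from the same expression data, so every value of the 9 genes and every difference between classes is a description here.

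The study measured single-cell RNA, with the 10x Genomics 3′ v3.1 chemistry, in corneal epithelium of C57BL/6J mice at 11 weeks (young) and 18 months (old). Each age is 1 library made from 4 corneas of 2 mice, with no genetic change or treatment named for either. With 1 library per age and the mice of a library not told apart, no test was possible, no p-value is given, and all intervals are 95% intervals that cover counting error only. The young library held 11470 cells with a median of 13500.5 UMIs and the old library 10199 cells with a median of 11994 UMIs. Cell barcodes shared by both libraries numbered 28, and none of them belonged to a cycling Wing, Squam or Conj cell.

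The corneal epithelium is renewed from stem cells at the limbus and from basal cells that divide on the basement membrane. Their daughters move up through the wing cell layers, stop dividing, gain differentiation products, and are shed as flat squamous cells at the surface. The conjunctiva borders the limbus and carries keratins of its own. TAC1 and TAC2 are deposited class names, usually read as transit amplifying cells, the dividing progeny of stem cells. A dividing cell first makes the proteins that copy its DNA (G1/S genes) and then those that build the spindle and separate the chromosomes (G2/M genes). Most of the 9 rule genes belong to the G2/M group.

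Many G2/M genes share short promoter letters, and the promoters of the 7 rule genes in the RefSeq table are shown because these genes define the cells. Each stretch is the 150 bases before the RefSeq start, 5′ to 3′ on the gene's strand, on GRCm38.p6, the assembly also known as mm10. GENCODE, from which the gene positions given later come, places the starts of Ube2c, Cdk1 and Ccnb1 inside these stretches. Capitals mark the letters CCAAT and the cell cycle homology region (CHR, searched as TTTGAA or TTCGAA), each on either strand.
Mki67 (chr7:135716380-135716529, minus strand): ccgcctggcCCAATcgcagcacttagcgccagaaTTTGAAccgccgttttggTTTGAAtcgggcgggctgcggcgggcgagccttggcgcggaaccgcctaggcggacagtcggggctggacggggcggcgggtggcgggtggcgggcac
Top2a (chr11:99024190-99024339, minus strand): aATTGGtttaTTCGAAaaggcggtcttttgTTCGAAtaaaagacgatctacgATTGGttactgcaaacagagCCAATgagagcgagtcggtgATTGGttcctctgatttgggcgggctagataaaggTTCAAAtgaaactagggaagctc
Birc5 (chr11:117849087-117849236, plus strand): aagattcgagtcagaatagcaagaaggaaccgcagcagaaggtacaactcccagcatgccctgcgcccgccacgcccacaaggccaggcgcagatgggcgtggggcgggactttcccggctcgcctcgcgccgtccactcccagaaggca
Ube2c (chr2:164769779-164769928, plus strand): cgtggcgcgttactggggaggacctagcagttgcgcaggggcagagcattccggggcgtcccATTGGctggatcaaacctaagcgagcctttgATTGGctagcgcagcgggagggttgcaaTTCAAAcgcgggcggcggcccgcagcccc
Cdk1 (chr10:69352913-69353062, minus strand): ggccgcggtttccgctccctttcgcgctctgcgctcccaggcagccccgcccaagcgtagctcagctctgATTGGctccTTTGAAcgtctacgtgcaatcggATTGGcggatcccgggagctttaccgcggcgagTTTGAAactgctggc
Cenpf (chr1:189688087-189688236, minus strand): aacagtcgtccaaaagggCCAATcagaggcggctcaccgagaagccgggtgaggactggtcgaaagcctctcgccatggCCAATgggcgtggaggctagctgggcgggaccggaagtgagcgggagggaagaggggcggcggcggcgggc
Ccnb1 (chr13:100786487-100786636, minus strand): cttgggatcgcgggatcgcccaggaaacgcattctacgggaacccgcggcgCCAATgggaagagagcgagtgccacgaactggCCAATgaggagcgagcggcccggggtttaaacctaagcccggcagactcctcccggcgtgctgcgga
The Mki67 stretch held 2 CHR matches and 1 CCAAT match, that of Top2a 3 and 4, that of Ube2c 1 and 2, and that of Cdk1 2 and 2. Cenpf and Ccnb1 each had 2 CCAAT matches and no CHR match in the 150 bases, and Birc5 had neither. Promoter windows (250 bases before to 50 after the start) were found for 7 of the 9 rule genes. Of those 7 windows, 5 held both motifs, against 7.52% of the 32851 windows in the RefSeq table. Among the windows of the fixed G2/M list (58 windows of 54 matched genes), 75.9% held a CHR match and 70.7% a CCAAT match, against 19.2% and 37.4% of all windows. The G1/S list differed from it: 12.5% of its 40 windows held a CHR match, while 32.5% held an E2F match (TTTCCCGC, TTTGGCGC, TTTCGCGC or TTTGCCGC, either strand), against 8.62% of the G2/M windows and 2.26% of all windows. A match describes letters and not binding.

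Cycling cells made up a small share of each class, and the share was highest in Conj. In Wing, 95 of 2975 young cells (3.19%, 2.59 to 3.89) and 67 of 2451 old cells (2.73%, 2.12 to 3.46) met the rule. In Squam the numbers were 40 of 1493 (2.68%, 1.92 to 3.63) and 18 of 1286 (1.40%, 0.832 to 2.20). In Conj they were 62 of 1067 (5.81%, 4.48 to 7.39) and 40 of 567 (7.05%, 5.09 to 9.48). The same rule took 87.3% and 82.9% of TAC2 cells and 23.7% and 22.0% of TAC1 cells. The Immune class gave 0 of 65 young cells (up to 4.62% by a floor of 3 counts and up to 5.52% by the exact interval) and 1 of 42 old cells. Its median depths were 1956 and 1663.5 UMIs, far below the other classes, so its share does not serve as a control for the rule.

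The shares were lower at equal depth. After each cell was thinned to 7112 UMIs and shallower cells were left out (273 and 249 in Wing, 47 and 111 in Squam, 70 and 75 in Conj, young and old), the share was 0.592% and 0.545% in Wing, 0.968% and 0.851% in Squam, and 3.51% and 5.28% in Conj. TAC2 stayed at 87.1% and 82.0%, but the share fell in other classes too. TAC1 went from 23.7% and 22.0% to 14.5% and 12.5%. The deposited class Basal went from 1.02% and 0.601% to 0.539% and 0.241%. In the deposited class LSC the share also fell in both libraries. The fall at equal depth was thus not particular to Wing, Squam and Conj. Old minus young, the share differed by -0.46 points in Wing (-1.38 to 0.48), -1.28 in Squam (-2.39 to -0.17) and 1.24 in Conj (-1.28 to 4.01). On thinned counts the Squam difference was -0.12 points (-0.90 to 0.72). The counting intervals thus span both signs in Wing and Conj, and in Squam only at equal depth. With 1 library per age, a difference between ages could not be tested.

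Cycling Wing and Conj cells held more than 2 times the UMIs of the other cells of their class. The rule reads raw UMIs and so favours deep cells, and a higher depth follows in part from the rule. With members chosen on thinned counts the Wing ratio was smaller, as given in the section on processing. The median was 42233 UMIs in young and 39083 in old cycling Wing cells, against 16401 and 15837.5 in other Wing cells. In Squam it was 31372.5 and 21867, against 19040 and 15889. In Conj it was 41334.5 and 30804, against 17960 and 14913. Cycling TAC2 cells had 15256 and 15235 UMIs, below every one of these medians except the 14913 of other old Conj cells, and cycling TAC1 cells had 16332 and 15108. Cycling cells were also deeper than the rest of TAC2 (7590 and 7713) and, less so, of TAC1 (12339 and 12266).

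**Figure D1:**
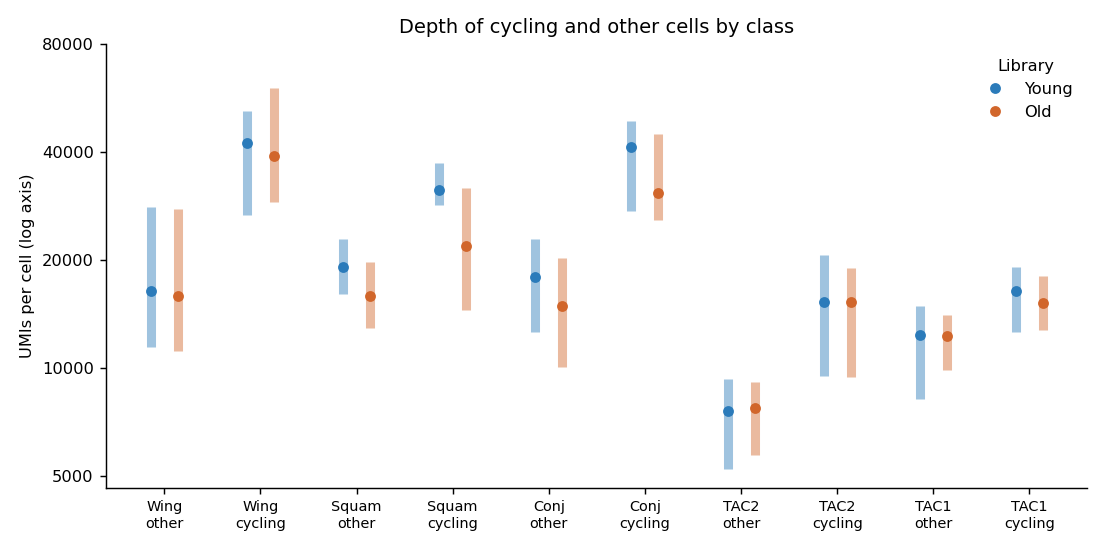
UMIs per cell (log axis) in cycling and other cells of 5 classes, with the median as a point and the middle 50% of cells as a bar, in the young (blue) and old (orange) library. Cycling Wing cells (medians 42233 and 39083) and cycling Conj cells (41334.5 and 30804) stand above the other cells of their class and above cycling TAC2 cells (15256 and 15235).

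The depth, which the rule favours, was set beside what 2 cells in 1 droplet (a doublet) would hold. The sum of the median other cell and the median cycling TAC2 cell was 31657 and 31072.5 UMIs for Wing, 34296 and 31124 for Squam, and 33216 and 30148 for Conj. Cycling cells held 1.33 and 1.26 times that sum in Wing, 0.915 and 0.703 times in Squam, and 1.24 and 1.02 times in Conj. Scrublet, which scores a cell by its likeness to simulated doublets, marked 1 cell in each library by its automatic threshold. Why it marked so few was not tested. Its ranking was used instead, with a cut at 8%, the doublet rate assumed in the scoring. Among the 8% of cells of each library with the highest scores were 56.8% and 67.2% of cycling Wing cells, 90.0% and 72.2% of cycling Squam cells, and 71.0% and 82.5% of cycling Conj cells. Of other cells of the same classes 5.28% to 11.0% were there, of cycling TAC2 cells 14.4% and 17.0%, and of cycling TAC1 cells 5.03% and 8.25%. Whether doublets account for the cycling cells was not tested.

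The cycling cells crowded into the deepest 20% of each class, a crowding that the rule favours because it reads raw UMIs. That share of cells held 65.3% and 67.2% of the cycling Wing cells, 82.5% and 50% of the cycling Squam cells, and 72.6% and 77.5% of the cycling Conj cells, against 22.8% and 23.9% of cycling TAC2 cells. Within it, 10.4% and 9.16% of Wing cells, 11.0% and 3.49% of Squam cells, and 21.0% and 27.2% of Conj cells met the rule. In the shallowest 20% the shares were 0.168% and 0.612%, 1.01% and 1.56%, and 0.939% and 0.885%.

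**Figure D2:**
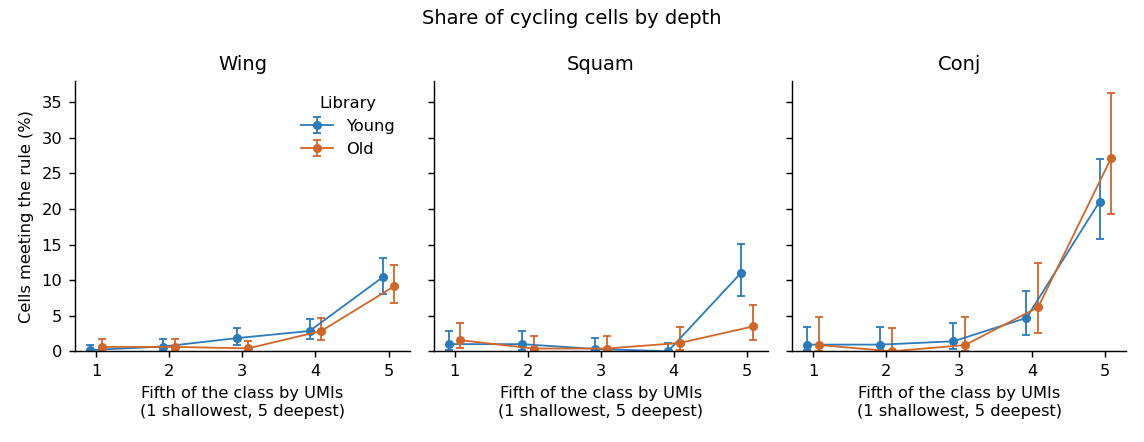
Share of cells meeting the rule (percent, with exact 95% binomial intervals) by depth within each class, from the shallowest 20% of cells (1) to the deepest (5), in the young (blue) and old (orange) library. In every class and library the deepest 20% has the highest share, from 3.49% in old Squam to 27.2% in old Conj.

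Conj cells met the rule by a wider margin than Wing and Squam cells. UMIs in 6 to 9 of the 9 genes were found in 68.6% of cycling Conj cells, 76.2% of cycling TAC2 cells, 25.3% of cycling Wing cells and 32.8% of cycling Squam cells. All 9 genes were found in 22 Conj cells, 4 Squam cells and 1 Wing cell. Just inside the threshold, with 3 genes, lay 63 Wing, 16 Squam and 14 Conj cells, at median depths of 37303, 30188 and 25418 UMIs. Just outside it, with 2 genes, lay 180, 45 and 31 cells, at 31656.5, 21686 and 24560 UMIs.

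The rule genes themselves were well below their TAC2 level, and closest to it in Conj. Mki67, a protein of the chromosome surface in dividing cells, was at 29.9 and 22.3 CPM (UMIs per 1000000 summed UMIs) in young and old cycling Wing cells, 90.0 and 60.0 in Squam, 104 and 126 in Conj, and 395 and 384 in cycling TAC2 cells. Other cells of the 3 classes had 0.875 to 1.251 CPM. Top2a, the topoisomerase that untangles copied DNA, was at 34.3 and 30.3 CPM in cycling Wing cells, 106 and 122 in Squam, 114 and 123 in Conj, and 507 and 467 in TAC2. Ube2c, an enzyme that marks mitotic proteins for breakdown, was at 34.3 and 35.1 CPM in Wing, 65.1 and 92.4 in Squam, 246 and 169 in Conj, and 684 and 570 in TAC2. In both libraries and for these 3 genes the order was Wing, then Squam, then Conj, then TAC2, with Squam and Conj of nearly equal Top2a level.

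Per cell the gap was smaller, because the cycling cells were deep. A cycling Conj cell held on average 9.50 (young) and 5.85 (old) Ube2c UMIs and a cycling TAC2 cell 10.8 and 8.76. For Mki67 the numbers were 4 and 4.35 against 6.24 and 5.90, and for Top2a 4.39 and 4.25 against 8.02 and 7.17. A cycling Wing cell held 1.39 and 1.88 Ube2c UMIs. Ccna2, the cyclin of S and G2 phase, had a UMI in 74.2% and 62.5% of cycling Conj cells and in 44.2% and 38.8% of cycling Wing cells, while 1.54% and 2.38% of Immune cells had one. Ccnb1, the cyclin that drives entry into mitosis, had a UMI in 45.2% and 42.5% of cycling Conj cells, 23.2% and 20.9% of cycling Wing cells and no Immune cell (0 of 65 and 0 of 42, where a floor of 3 counts lies at 4.62% and 7.14%). Immune cells are far shallower, at the medians given above, than the cycling cells.

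Cycling Wing and Squam cells carried more G1/S than G2/M transcripts, and cycling Conj cells the reverse. Neither list contains a rule gene. Of the UMIs in the 44 G1/S and 62 G2/M genes together, the G1/S genes took 61.5% and 61.7% in cycling Wing cells, 62.9% and 56.4% in Squam, and 40.0% and 42.5% in Conj. The share was 32.3% and 35.5% in cycling TAC2 cells and 76.0% and 76.1% in cycling TAC1 cells. Other Wing cells gave 58.3% and 58.9%, other Squam cells 64.0% and 60.7%, and other Conj cells 54.5% and 57.4%. In UMIs per cell, a young cycling Conj cell had 46.7 for the G1/S list and 70.2 for the G2/M list, a Wing cell 43.9 and 27.4, and a TAC2 cell 48.0 and 101. The G2/M list was thus lower per cell in every one of the 3 classes than in cycling TAC2 cells, while the G1/S list was about as high or higher, except in old Squam (33.9 against 48.2). These cells are deeper than TAC2 cells, and scaled to depth the G1/S list was lower in all 3 classes: it summed to 1084 and 902 CPM in cycling Wing cells, 2024 and 1527 in Squam and 1211 and 1403 in Conj, against 3037 and 3140 in cycling TAC2 cells.

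**Figure D3:**
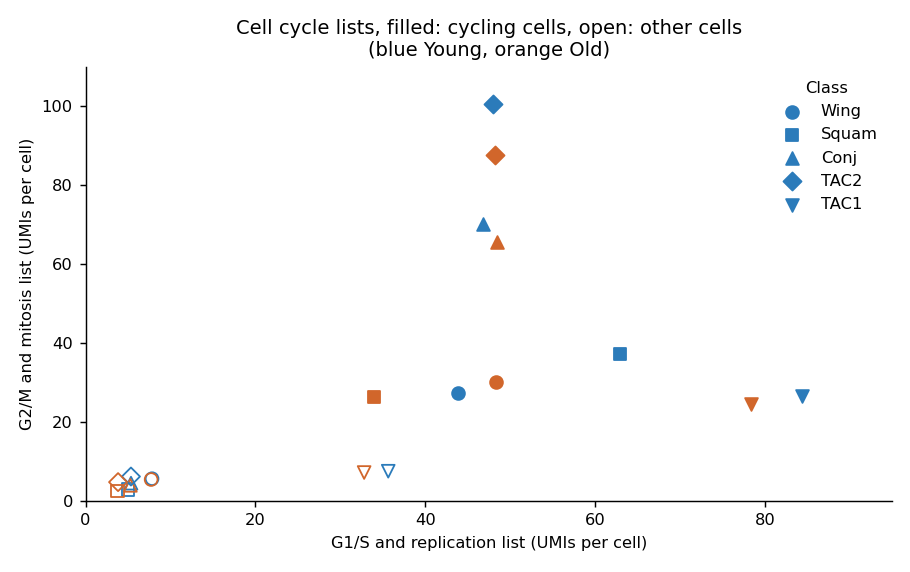
Mean UMIs per cell in the G1/S list (x axis) and the G2/M list (y axis) for cycling (filled) and other (open) cells of 5 classes in the young (blue) and old (orange) library. Cycling Conj cells (46.7 and 70.2, young) lie between cycling TAC2 cells (48.0 and 101) and cycling Wing cells (43.9 and 27.4) on the y axis, and the other cells of Wing, Squam, Conj and TAC2 lie near the origin.

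Genes outside the rule were then compared between cycling and other cells of the same class, for genes of at least 20 CPM, calling a gene where it differed at least 2-fold in the same direction in both libraries. Wing differed least. There, 49 of 5089 genes were higher in cycling cells (0.963%) and 6 lower (0.118%). In Squam 778 of 5023 were higher (15.5%) and 61 lower (1.21%), and in Conj 324 of 5345 were higher (6.06%) and 105 lower (1.96%). The genes higher in all 3 classes numbered 44, of which 22 belong to the fixed cell cycle lists. Wing, with 49 called, limits that overlap. Cycle list genes were 23 of the 49 in Wing, 75 of the 778 in Squam and 70 of the 324 in Conj. Among genes compared, the G1/S, G2/M, and chromatin and tubulin lists had 24, 13 and 20 members in Wing. They had 38, 27 and 20 in Squam, and 28, 33 and 20 in Conj. The split in Squam depended on scaling: with trimmed-mean scaling, which divides the Squam ratios by 1.74 (young) and 1.54 (old) and takes the median of all genes from 0.22 to -0.52 on the log2 scale, 393 genes were higher and 859 lower. In Conj the same scaling divides the ratios by 1.23 and 1.14, takes that median from 0.08 to -0.18, and gave 216 higher and 228 lower.

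Replication (G1/S) genes and G2/M genes both stood out in all 3 classes, with the higher median for G1/S in Wing and for G2/M in Squam and Conj. Of the G1/S list, 16 of 24 genes compared were at least 2-fold higher in Wing, 38 of 38 in Squam and 25 of 28 in Conj, where 0.963%, 15.5% and 6.06% of all genes compared were. Their median log2 ratio was 1.56 (young) and 1.31 (old) in Wing, 3.27 and 3.01 in Squam, and 2.29 and 2.31 in Conj, against 0.01 and -0.13, 0.29 and 0.15, and 0.12 and 0.04 over all genes compared. Of the G2/M list, 5 of 13 genes compared were at least 2-fold higher in Wing, 24 of 27 in Squam and 30 of 33 in Conj (the same shares of all genes apply), with medians of 0.99 and 0.51, 3.61 and 3.54, and 4.05 and 3.98. These genes share a cycle with the rule genes, so their higher level follows in part from the rule, and the genes compared are those that passed 20 CPM, which a gene may do through the cycling cells alone. With trimmed-mean scaling the mean of the 2 libraries' medians was 1.36, 2.66 and 2.15 for the G1/S list and 0.56, 3.22 and 3.84 for the G2/M list.

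Mcm5, a subunit of the helicase that opens DNA for copying, was at 24.2 and 21.7 CPM in cycling Wing cells and 4.15 and 3.84 in other Wing cells (5.83-fold, 4.55 to 7.43, and 5.66-fold, 4.29 to 7.40). It was 22.5-fold and 19.1-fold higher in cycling Squam cells and 7.39-fold and 6.38-fold higher in cycling Conj cells. Pcna, the clamp of the DNA polymerases, differed less, at 63.7 and 61.0 CPM in cycling Wing cells against 39.3 and 38.3 in other Wing cells (1.62-fold and 1.59-fold higher). It was 7.87-fold and 5.10-fold higher in Squam and 3.05-fold and 3.01-fold higher in Conj. Stmn1, which takes microtubules apart, was at 118 and 133 CPM in cycling Wing cells, 342 and 500 in Squam, and 393 and 479 in Conj, against 7.52 to 18.9 CPM in other cells of those classes. All these intervals leave out 1.

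Pclaf, a PCNA-binding protein of replicating cells (chr9:65890237-65903266, plus strand), led or followed closely among genes outside the lists in each class. It was at 90.5 and 69.6 CPM in cycling Wing cells, 219 and 260 in Squam, and 170 and 220 in Conj, against 1.34 to 3.61 CPM in other cells of those classes. Hist1h1b, a linker histone made in S phase (chr13:21779883-21780625, minus strand), was at 137 and 130 CPM in cycling Squam cells and 123 and 174 in cycling Conj cells, against 1.17 to 2.01 in other cells. In cycling Wing cells it was only at 12.0 and 21.7 CPM, while cycling TAC2 cells had 750 and 686. Histone genes have near-identical copies and their main transcripts lack a poly(A) tail, so their counts are uncertain. Among the 10 genes named as furthest below TAC2, by the interval bound nearest 1, histone genes made up 9 in Wing, 5 in Squam and most of those in Conj.

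Inhibitors of the cycle differed by gene and class. Cdkn1a, the p21 inhibitor of cyclin-dependent kinases, was lower in cycling than in other cells, at 275 and 212 against 368 and 378 CPM in Wing and 284 and 236 against 345 and 313 in Conj. In Squam it was at 121 and 120 against 123 and 152 CPM, with intervals of the ratio that include 1. Trimmed-mean scaling divides those Squam ratios by 1.74 and 1.54 and so makes Cdkn1a lower in cycling cells there too. Cdkn1b, the p27 inhibitor, was lower in Wing (58.0 and 34.2 against 84.97 and 81.8 CPM) and higher in Conj (46.0 and 65.1 against 36.8 and 37.6).

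Genes of the basal layer were also higher in cycling cells, most in Squam. Of the list of basal keratins and hemidesmosome genes, which tie basal cells to the basement membrane, 4 of 14 compared were at least 2-fold higher in Wing, 11 of 16 in Squam and 5 of 13 in Conj, against 0.963%, 15.5% and 6.06% of all genes compared. The median log2 ratio was 0.38 and 0.07 in Wing, 2.21 and 1.87 in Squam, and 1.03 and 0.73 in Conj. Krt14, the type I keratin of basal cells (chr11:100203162-100207548, minus strand), was at 774 and 460 CPM in cycling Squam cells, against 44.5 and 45.2 in other Squam cells (17.4-fold, 15.99 to 18.9, and 10.2-fold, 8.64 to 11.9). In Wing it was at 248 and 214 against 107 and 49.5 CPM, and in Conj at 1871 and 544 against 847 and 253. Itgb4, the hemidesmosome integrin, was 10.1-fold and 7.12-fold higher in Squam, 5.23-fold and 4.56-fold in Conj, and 2.26-fold and 2.73-fold in Wing. Krt15 went the other way: it was at 9718 and 8041 CPM in cycling Conj cells against 24760 and 22380 in other Conj cells. The ribosome biogenesis list had medians of 0.58 and 0.13 in Wing, 2.36 and 1.73 in Squam, and 1.14 and 0.82 in Conj, with 0 of 12, 9 of 10 and 2 of 11 genes compared at least 2-fold higher (0.963%, 15.5% and 6.06% of all genes). The Wing count is near that share.

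Many products of differentiation were lower in cycling cells. Of the suprabasal and squamous list, 6 of 13 genes compared in Wing, 13 of 20 in Squam and 12 of 19 in Conj were at least 20% lower in both libraries, where 8.67%, 14.6% and 14.9% of all genes compared were. In each class 1 member was at least 2-fold higher: Lce3a in Wing, and Ly6d in Squam and in Conj. In old cycling Squam cells Ly6d rested on 1 UMI (2.50 CPM), with 30 UMIs (24.1 CPM) in young ones. The median log2 ratio was -0.38 and -0.43 in Wing, -0.83 and -0.49 in Squam, and -0.64 and -0.71 in Conj. Asprv1, a protease of differentiating keratinocytes, was at 1071 and 881 CPM in cycling Wing cells against 2642 and 2520 in other Wing cells (2.47-fold and 2.86-fold lower). Krt12, the keratin that marks the corneal epithelium, was at 20156 and 16484 CPM in cycling Wing cells against 28922 and 25298 (0.697 and 0.652 times). In Squam Krt12 was level, at 12774 and 10401 against 12450 and 10623 CPM, and under trimmed-mean scaling, which divides those ratios by 1.74 and 1.54, it was lower in cycling cells.

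**Figure D4:**
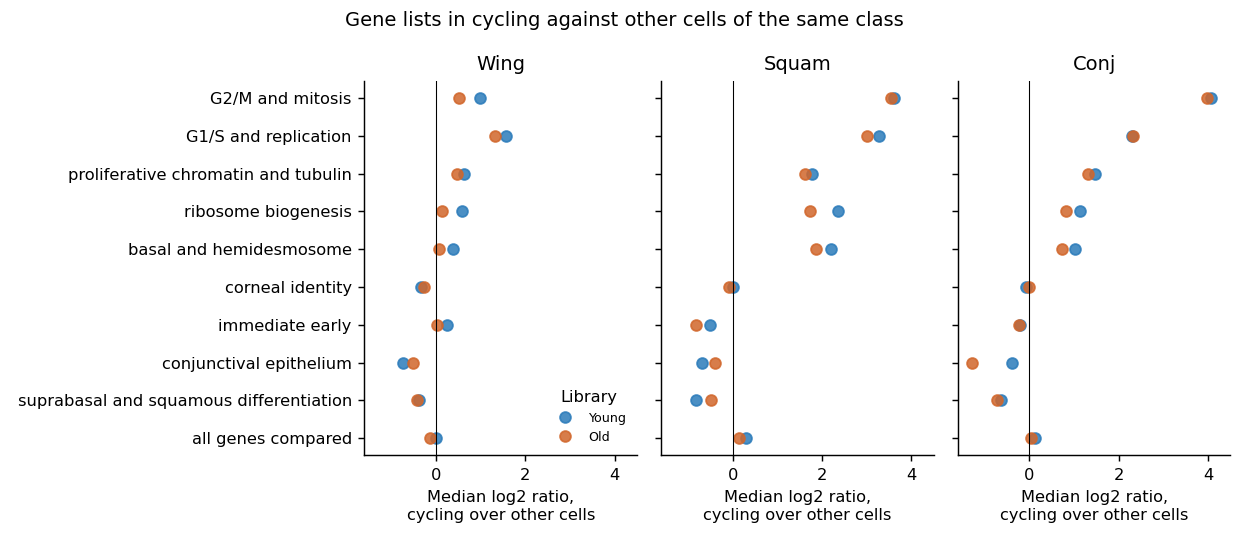
Median log2 ratio of cycling over other cells of the same class for 9 fixed gene lists and for all genes compared, in the young (blue) and old (orange) library. Cell cycle lists lie to the right in every class (up to 4.05 for G2/M in Conj), basal and ribosome biogenesis genes lie to the right mainly in Squam (2.21 and 2.36, young) and Conj, and suprabasal and conjunctival genes lie to the left.

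Cycling Conj cells had less of the conjunctival keratins than other Conj cells. Of the conjunctival list, 7 of 15 genes compared were at least 2-fold lower and 1 higher (Ly6d), where 1.96% and 6.06% of all genes compared were. The corneal identity list was level, with 2 of 14 genes compared at least 2-fold higher (Slurp1 and Tkt), none lower, and median log2 ratios of -0.08 and -0.02. Krt13, a keratin of wet stratified epithelia (chr11:100117327-100121566, minus strand), was at 2195 and 852 CPM against 6918 and 2376 in other Conj cells (3.15-fold, 3.07 to 3.24, and 2.79-fold, 2.63 to 2.96, lower). Its partner Krt4 was 2.70-fold and 3.59-fold lower and Krt19 3.78-fold and 4.26-fold lower. Adh6a and Cyp2a5, enzymes that oxidize alcohols and small foreign compounds, were 6.01-fold and 4.33-fold, and 3.84-fold and 4.35-fold, lower. Krt12 was at 11686 and 12165 CPM in cycling Conj cells against 6848 and 6087 (1.71-fold and 2.00-fold higher), and Slurp1, a secreted protein abundant in corneal epithelium, at 5061 and 5615 against 1820 and 1874 (2.78-fold and 3.00-fold). The metallothioneins Mt1 and Mt2, which bind metal ions, were 5.45-fold and 4.73-fold, and 5.80-fold and 4.36-fold, higher. In their expression neighbourhood (15 nearest cells, cycle genes left out), 60.5% of the neighbours of cycling Conj cells were Conj and 23.8% Wing, against 85.8% and 6.54% for other Conj cells. The neighbours of cycling Wing cells were 92.6% Wing, and those of cycling Squam cells 79.7% Squam and 12.6% Wing. These neighbours include cycling cells of the 3 classes: 22.3% in Wing, 32.8% in Squam and 47.1% in Conj. For other cells these shares were 1.26%, 0.590% and 1.17%. Among the 8% highest Scrublet scores were 46.6%, 69.1% and 61.9% of the neighbours, against 7.94%, 5.34% and 4.15% for other cells.

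In Squam several alarm and early response genes were lower in cycling cells. S100a7a, an antimicrobial alarm protein, was at 157 and 37.5 CPM against 385 and 179 in other Squam cells. Nfkbia, the inhibitor of NF-kB, was 4.71-fold (3.70 to 6.08) and 4.18-fold (2.02 to 10.4) lower. Dusp1, a phosphatase induced early by stress, was 2.99-fold and 2.85-fold lower. Of the immediate early list, 7 of 11 genes compared were at least 20% lower, where 14.6% of all genes compared were. Lce3a, a late cornified envelope gene (chr3:92925287-92926230, minus strand), was 3.15-fold (2.95 to 3.38) lower in young cells and, on 3 UMIs in all, 126-fold (43.2 to 612) lower in old ones. Its neighbour in name Lce3f had 1 UMI in young cycling Squam cells (145-fold lower, 26.1 to 5744) and none in 400234 UMIs of old ones, 3.82-fold lower against a floor of 3 counts, with an exact lower limit of 3.099-fold.

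Levels in cycling TAC2 cells are set beside these values. The comparisons with other cells of the class and with cycling TAC2 cells share the same cycling cells. Krt14 was at 2033 and 1105 CPM in cycling TAC2 cells and Itgb4 at 155 and 136, above all 3 classes in both libraries (Krt14 774 and 460 in cycling Squam, Itgb4 73.1 and 67.5). Stmn1 was at 1326 and 1482 CPM in TAC2, Mcm5 at 57.3 and 55.4, and Pcna at 192 and 202, each above its level in the cycling cells of the 3 classes. Krt13 was at 106 and 38.1 CPM in TAC2, below its level in cycling Wing cells (788 and 548), Squam cells (2961 and 1702) and Conj cells. Krt12 was at 13078 and 12311 CPM in TAC2, below cycling Wing cells and above cycling Squam and Conj cells.

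Set directly against cycling TAC2 cells, the cycling cells of each class had more of the differentiation products. In Wing 349 of 5761 genes compared were at least 2-fold higher than in TAC2 (6.06%) and 586 lower (10.2%). In Squam these were 657 (11.1%) and 756 (12.8%) of 5922, and in Conj 514 (8.77%) and 433 (7.38%) of 5864. With trimmed-mean scaling, which divides the Squam ratios by 0.773 and 0.839, the Squam counts were 878 and 273, the Wing counts 471 and 397, and the Conj counts 604 and 259. Of the suprabasal list, 11 of 14 genes compared in Wing, 15 of 19 in Squam and 16 of 19 in Conj were at least 2-fold higher than in TAC2.

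Psca, a surface protein of differentiated epithelium, was at 20370 and 21875 CPM in cycling Squam cells, 1465 and 2272 in Wing and 3810 and 2662 in Conj, against 112 and 109 in cycling TAC2 cells. Hopx, a homeodomain cofactor, was 17.7-fold and 22.4-fold higher than in TAC2 in Wing and 29.8-fold and 37.6-fold in Conj. Krt6b, whose reads can be shared with the near-identical Krt6a, was 12.8-fold and 15.3-fold higher in Wing and 24.7-fold and 24.1-fold in Conj. Krt13 was 20.6-fold and 22.4-fold higher in Conj. Among the gene lists, G2/M genes were furthest below TAC2, with median log2 ratios of -3.48 and -3.49 in Wing, -2.49 and -2.37 in Squam, and -1.87 and -1.64 in Conj. Of 61 genes compared, 59, 59 and 58 were at least 2-fold lower, where 10.2%, 12.8% and 7.38% of all genes compared were. A gene may pass 20 CPM through TAC2 cells alone, and most TAC2 cells meet the rule. These lower levels therefore follow in part from the filter and the rule. Of the G1/S list, 31 of 39 genes compared in Wing, 9 of 41 in Squam and 21 of 39 in Conj were at least 2-fold lower than in TAC2, with medians of -1.38 and -1.68, -0.41 and -0.91, and -1.28 and -1.15. The same shares of all genes and the same limit apply.

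The cycling cells lay between TAC2 and their own class. For genes outside the cell cycle lists, of at least 50 CPM, that differed at least 2-fold between the 2 references in both libraries, a position of 0 was set at cycling TAC2 cells and 1 at the other cells of the class, on the linear CPM scale. The median position was 0.780 and 0.763 in Wing (716 genes), 0.587 and 0.636 in Squam (1814 genes), and 0.605 and 0.582 in Conj (1149 genes). Between the references lay 94.3% and 86.9% of the genes in Wing, 99.2% and 95.6% in Squam, and 98.7% and 98.1% in Conj. A sum of the median other cell and the median cycling TAC2 cell would lie at 0.518 and 0.510 for Wing, 0.555 and 0.511 for Squam, and 0.541 and 0.495 for Conj. Without the 8% of cells with the highest Scrublet scores, the median position was 0.861 and 0.917 in Wing, 0.776 and 0.893 in Squam, and 0.640 and 0.763 in Conj, from 41 and 22, 4 and 5, and 18 and 7 cycling cells. Leaving out cells that resemble simulated doublets can by itself move the position towards 1, whatever those cells are.

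Cell by cell, Wing and Squam differed. The share of a cell's UMIs in genes higher in cycling TAC2 cells had a median of 2.76% and 2.68% in cycling Wing cells, 2.04% and 2.04% in other Wing cells, and 6.99% and 6.85% in cycling TAC2 cells. In Squam the medians were 29.2% and 28.5%, against 10.4% and 12.1% in other Squam cells and 51.8% and 53.4% in TAC2. In Conj they were 16.5% and 18.5%, against 7.51% and 9.92%, and 27.3% and 28.4%. At or below the level that 95% of other cells of the class do not exceed lay 73.7% and 92.5% of cycling Wing cells, 12.5% and 44.4% of cycling Squam cells, and 41.9% and 55.0% of cycling Conj cells.

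**Figure D5:**
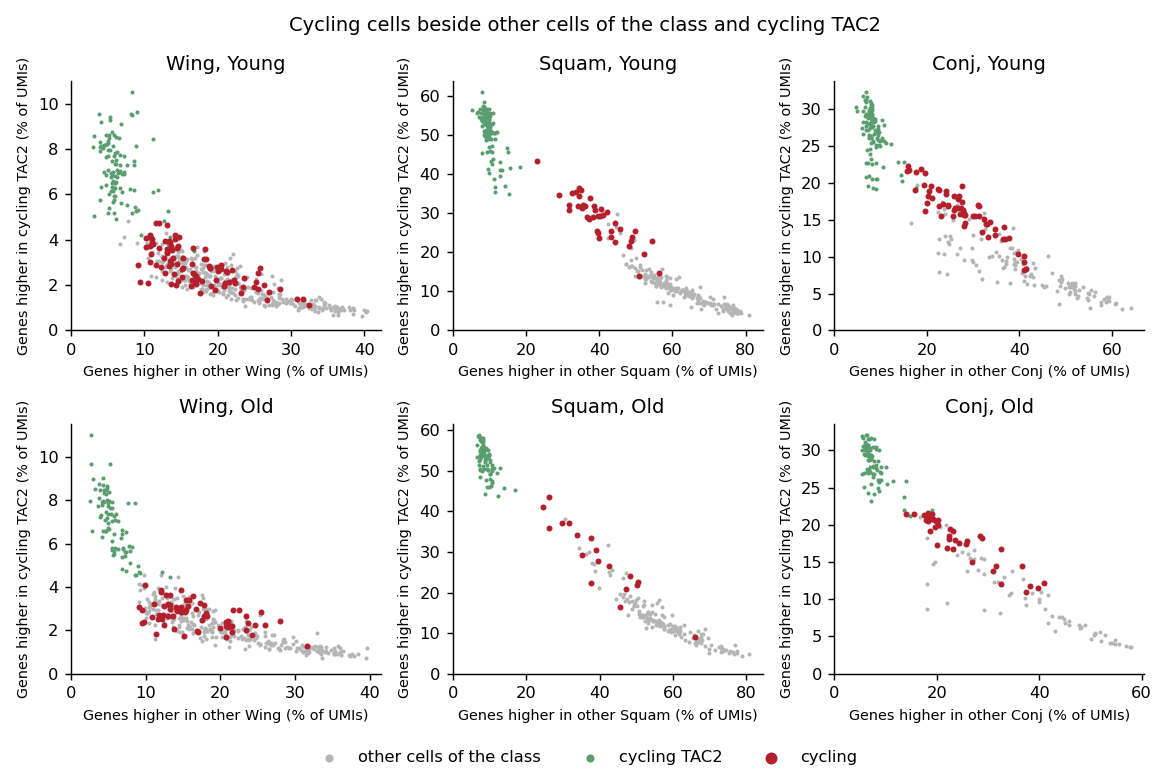
Share of each cell's UMIs in genes higher in other cells of the class (x axis) and in genes higher in cycling TAC2 cells (y axis), for all cycling cells (red) and every 8th other cell of the class (grey) and cycling TAC2 cell (green). Cycling Wing cells lie within the cloud of other Wing cells for the most part (73.7% and 92.5% at or below the level of 95% of them), while most young cycling Squam cells (87.5%) lie above it.

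Some cycling cells looked like the other cells of their class on all 3 measures read here: UMIs at or below the level of 95% of other cells, a Scrublet score outside the highest 8%, and TAC2 genes at or below the level of 95% of other cells. These measures were put together after the data were seen. Of the 322 cycling cells 45 met all 3, namely 18 and 14 in Wing, 2 and 4 in Squam, and 2 and 5 in Conj. Of other cells 81.1% to 88.2% did, against 18.9% and 20.9% of cycling Wing cells, 5% and 22.2% of Squam and 3.23% and 12.5% of Conj. The 18 young and 14 old Wing cells were still deep, with medians of 37114.5 and 35476.5 UMIs, and had 28.2 and 27.6 UMIs in the G1/S list and 20.3 and 21.1 in the G2/M list. Of these Wing cells, 10 and 6 had only 3 rule genes, and 3 and 1 had 6 to 9. Among the others, 6 to 9 rule genes were found in none of the Squam cells, 1 of the 2 young Conj cells and 4 of the 5 old Conj cells. At the other end, 32 of the 322 cells lay outside the range on all 3 measures.

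A few genes lay outside both references, at least 2-fold and in both libraries. Of 2878 genes in Wing 1 was above and 3 were below, of 3128 in Squam 0 and 1, and of 3047 in Conj 1 and 2. In Wing, Lce3a was above both, at 50.2 and 41.8 CPM against 10.6 and 15.7 in other Wing cells and 7.02 and 2.23 in cycling TAC2 cells. In Conj, Ly6d, a surface protein of stratified epithelia (chr15:74762056-74763620, minus strand), was above both, at 242 and 14.5 CPM against 47.0 and 4.79, and 43.2 and 6.41. The noncoding RNA AY036118 (chr17:39847113-39848035, minus strand) was below both in Wing, at 102 and 74.1 CPM against 404 and 387, and 445 and 476. Lars2, the leucyl-tRNA synthetase of mitochondria (chr9:123366927-123462666, plus strand), was below both in Wing too, at 132 and 80.7 CPM against 325 and 298, and 399 and 403. Both genes were also below both references in Conj, and the remaining gene below in Wing is not named here. In Squam, Krt16 was below both, at 12.9 and 0 CPM against 58.2 and 13.7, and 58.7 and 0.583. The old TAC2 level lies below the floor of 3 counts in old cycling Squam cells (7.50 CPM), so that difference is not resolved.

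Markers of cell types outside the epithelium were near 0. The 15 immune markers summed to 0 to 4.34 CPM in the cycling cells of the 3 classes and 1.05 to 7.70 in the other cells, against 51031 and 45358 in the Immune class. Only in old Conj was this sum higher in cycling than in other cells (4.34 against 1.05 CPM, on 6 and 9 UMIs). Ptprc, Cd52, Tyrobp and Cd3e were at 0 UMIs in the cycling cells of all 3 classes and both libraries. Cd3e was also at 0 UMIs in the young Immune class, so its absence is not informative there. Stromal, melanocyte and endothelial markers (4, 3 and 4 genes in the table) summed to at most 4.34, 4.997 and 1.04 CPM in cycling cells. The stromal sum was higher in cycling than in other cells in old Conj (4.34 against 1.05 CPM) and young Squam (1.61 against 0.435), and lower elsewhere. The goblet cell list (7 genes in the table) summed to 19.8 to 56.4 CPM in cycling and 15.8 to 49.4 in other cells.

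Between the ages, cycling Wing cells differed in few genes. Of 4898 genes, 22 (0.449%) had at least 2-fold more CPM in old cells and 29 (0.592%) at least 2-fold less. In Conj 44 of 5096 were higher (0.863%) and 66 lower (1.30%). In Squam 181 of 4833 were higher (3.75%) and 174 lower (3.60%), of which 123 and 88 had a counting interval leaving out 1, since the 18 old Squam cells held 400234 UMIs in all. For cycling TAC2 cells the numbers were 6 (0.114%) and 14 (0.267%) of 5243. Age and library cannot be told apart.

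Gpha2, a glycoprotein hormone subunit that marks limbal cells, was at 283 CPM in old and 49.96 in young cycling Wing cells (5.66-fold, 4.85 to 6.64), and at 49.4 and 25.9 CPM in old and young other Wing cells (1.91-fold). Apoe, a lipid carrier, was 2.89-fold (2.42 to 3.48) higher in old cycling Wing cells and 1.251-fold higher in old other ones. Whether these differences themselves differ was not tested. Krt4 was lower in old cycling cells, at 35.6 against 91.8 CPM in Wing and 29.98 against 259 in Squam, and was lower in old other cells too (35.4 against 164, and 52.7 against 300).

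In Conj the stress keratin Krt16 was at 31.8 CPM in old and 1254 in young cycling cells, and at 54.2 and 1648 in other Conj cells. Ly6d was at 14.5 against 242 CPM, and Sprr1a, a cornified envelope precursor, at 29.7 against 287. Cyp2f2, a cytochrome P450 enzyme, was higher with age in cycling Conj cells, at 146 against 24.2 CPM (6.03-fold, 4.48 to 8.22), and in other Conj cells at 190 against 54.8. In Squam, Lce3a was at 7.50 CPM in old and 686 in young cycling cells, on 3 and 853 UMIs. Crct1, another cornified envelope gene, was at 235 CPM in young and had no UMI in old cycling cells, 31.3-fold lower against a floor of 3 counts, with an exact lower limit of 25.3-fold. Other Squam cells had 2163 and 946 CPM of Lce3a and 361 and 132 of Crct1.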

How the data were processed

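Single-cell RNA was measured in 1 young and 1 old library of mouse corneal epithelium. The authors deposited raw UMI counts for 17437 genes and 21669 cells, with an age, 1 of 8 classes and a UMAP score (embedding coordinate, not used here) per cell. Cell Ranger 5.0.0, Seurat 4 and mm10 are named per the submitters' processing notes. Which cells were filtered out, and whether doublets or ambient RNA were removed, was not given in the sources used here.

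Members, gene lists and comparisons were chosen with earlier results of these data known. Counts were summed per library, class and cycling state and divided by the sum (CPM). With 1 library per age no test was run. Genes of at least 20 CPM in either sum of either library were compared, with 1 CPM added for log2 ratios, and a call meant at least 2-fold in the same direction in both libraries. Shares carry exact Clopper-Pearson intervals, differences of shares Newcombe intervals, and ratios of counts exact conditional intervals, all at 95%. UMIs are counted molecules, but these intervals cover counting error only.

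Genes outside the cell cycle lists were named by rule: up to 10 per direction and comparison, and up to 5 per direction for age, of at least 50 CPM and 2-fold, ranked by the interval bound nearest 1, with up to 7 members per list. Promoter letters came from RefSeq on GRCm38.p6 and gene positions from the GENCODE annotation of GRCm38. Doublet scores came from Scrublet in scanpy 1.11.5. Trimmed-mean scaling used edgeR 4.0.16 and median-of-ratios scaling DESeq2 1.42.0, in R 4.3.3, for scaling alone. Other steps used Python 3.11.15, numpy 2.4.6, scipy 1.17.1, pandas 2.3.3 and scikit-learn 1.9.0. The counting and calling steps were tested on simulated data. Alternatives covered the threshold, thinning, deep cells, Scrublet scores, scaling, per-cell means, the CPM minimum, the added CPM and the choice of other cells.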

Additional observations from a re-analysis of the deposited data

Results flagged for a closer look

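Krt16, a keratin of stressed and wounded epithelium, differed in opposite directions in the 2 libraries. Cycling Wing cells had 0.377 times the CPM of cycling TAC2 cells in the young library (22.1 against 58.7 CPM) and 3.82 times in the old one (2.23 against 0.583 CPM), a difference of 3.34 on the log2 scale. The difference was not tested, since each age is 1 library, and the old levels lie far below the 20 CPM that the other comparisons required.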

How the results depend on the processing

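No paired analysis was possible because each age is 1 library. For the main shares, depths, positions and counts of genes, 146 alternative values stayed within the interval or within 1.5 times of the count, 108 moved further and 1 reversed. For lists and single genes these numbers were 472, 95 and 1. The main values that moved or reversed follow, young before old, with the 1 list value that reversed. The list and single-gene values that moved are not printed in this section. The cause of each change was not tested, except where fewer cells or genes were compared by construction.

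With at least 2 of 9 rule genes the shares were 6.42% and 6.16% in Wing, 4.69% and 2.57% in Squam, and 7.59% in young Conj. With at least 4 they were 1.98% and 1.63% in Wing and 1.81% in young Squam, 12 genes were lower in cycling than in other Wing cells, and 119 were lower in old than in young cycling Wing cells. Thinned, the shares were 0.592% and 0.545% in Wing, 0.968% in young Squam and 3.51% in young Conj, and the Squam age difference was -0.12 points. With members chosen on thinned counts, cycling Wing cells had 1.39 and 1.49 times the UMIs of other Wing cells.

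Without cells above the 95th percentile of UMIs the shares were 2.48% and 1.98% in Wing and 3.75% and 5.02% in Conj. Old against young, 405 genes were then higher in Squam, and 155 higher and 112 lower in Conj. Without the 8% of cells with the highest Scrublet scores the shares were 1.54% and 1.03% in Wing, 0.298% and 0.415% in Squam, and 1.86% and 1.40% in Conj, and the Squam age difference reversed to 0.12 points. The depth ratio was 2.97 in young Wing and 1.15 in young Squam, and the position was 0.917 in old Wing, 0.776 and 0.893 in Squam, and 0.763 in old Conj. Against other cells, 16 genes were then lower in Wing, 413 higher and 115 lower in Squam, and 69 lower in Conj. Against TAC2, 622 were higher in Wing, 1610 lower in Squam and 762 lower in Conj. Old against young, 71 were higher and 64 lower in Wing, 1145 and 1261 in Squam, and 625 and 684 in Conj, on the few cycling cells left.

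With trimmed-mean scaling, against other cells, 13 genes were lower in Wing, 393 higher and 859 lower in Squam, and 228 lower in Conj. Against TAC2, 273 were lower in Squam and 259 in Conj, and 9 were lower in old than in young Wing. With median-of-ratios scaling, against other cells, 444 were higher and 695 lower in Squam, and 208 higher and 236 lower in Conj. Against TAC2, 375 were lower in Wing, 204 in Squam and 243 in Conj, and the median log2 ratio of all genes in Squam reversed from -0.43 to 0.020. Old against young, 9 were lower in Wing and 26 higher in Conj. With the mean of per-cell CPM, 422 genes were higher in old than in young Squam.

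With at least 50 CPM, against other cells, 16 genes were higher in Wing, 326 higher and 36 lower in Squam, and 137 higher and 66 lower in Conj. Against TAC2, 213 were higher and 306 lower in Wing, 356 lower in Squam, and 312 higher and 209 lower in Conj. Old against young, 8 were higher and 5 lower in Wing, 36 and 29 in Squam, and 6 and 27 in Conj. With at least 5 CPM, against other cells, 184 were higher and 16 lower in Wing, 1760 higher and 111 lower in Squam, and 872 higher in Conj. Against TAC2, 574 were higher and 1043 lower in Wing, 1432 lower in Squam, and 779 higher and 815 lower in Conj. Old against young, 122 were higher and 189 lower in Wing, 764 and 874 in Squam, and 400 and 288 in Conj. With 5 CPM added, 35 genes were lower in cycling than in other Squam cells, and 469 in Squam and 288 in Conj were lower than in TAC2. Old against young, 13 were then higher and 9 lower in Wing, 84 and 98 in Squam, and 18 higher in Conj. With other cells taken at the depth of the cycling cells, chosen after seeing the data, 33 genes were lower in Squam and 52 in Conj.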

Other observations

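Chromatin and tubulin genes that dividing cells use heavily were also higher in cycling cells, though less so than the replication genes. Of 20 list members compared, 2 in Wing, 13 in Squam and 15 in Conj were at least 2-fold higher than in other cells of the class, where 0.963%, 15.5% and 6.06% of all genes compared were, with median log2 ratios of 0.63 and 0.47, 1.77 and 1.62, and 1.47 and 1.30. Hmgn2, a nucleosome-binding protein, was at 73.1 and 69.9 CPM in cycling Wing cells against 28.9 and 29.7 in other Wing cells, at 113 and 119 against 15.2 and 19.3 in Conj, and at 90.0 and 99.9 against 8.19 and 10.03 in Squam. Hmgb2, a DNA-bending protein, was at 189 and 162 against 91.7 and 86.8 CPM in Wing and at 484 and 574 against 113 and 142 in Conj. In every class at least 14 of the 22 members compared with cycling TAC2 cells were at least 2-fold lower than there. Of all genes compared, 10.2% in Wing, 12.8% in Squam and 7.38% in Conj were. A gene may pass 20 CPM through TAC2 cells alone here too.

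Of the immediate early list, 0 of 11 members compared in Wing differed 2-fold between cycling and other cells, near the share of all genes (0.963% higher and 0.118% lower). Its median log2 ratios were 0.24 and 0.03. Of 9 glycolysis genes compared in Squam, 3 were at least 2-fold higher in cycling cells, against 15.5% of all genes compared, with medians of 0.65 and 0.56, which trimmed-mean scaling lowers by the logarithm of 1.74 and 1.54.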
